A study of Homo sapiens with 12 samples.

Results

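The genes described here are 7 members of the interleukin-1 (IL1) family and its receptor pathway, namely the ligands IL1A, IL1B and IL18, the receptor chains IL1R1 and IL1RAP, and the receptor-associated kinases IRAK1 and IRAK2. They were chosen by gene symbol, with earlier results of these data known. All 7 are present among the 12451 genes of the deposited count table, and all 7 were among the 11303 genes tested.

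IL-1α and IL-1β bind the receptor chain encoded by IL1R1, which then pairs with the accessory chain encoded by IL1RAP. The paired receptor recruits the adaptor MYD88 and the IRAK kinases, and TRAF6 and the TAK1 kinase pass the signal on to NFκB and MAP kinases. NFκB in turn is a known activator of IL1A, IL1B and other cytokine genes, also downstream of the TNFα receptor. In breast cancer the pathway is known for inflammatory signaling between tumor cells and their surroundings.

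RNA was sequenced in MDA-MB-231-ERβ cells, which are a triple negative breast cancer (TNBC) line engineered to express full length ERβ when doxycycline (dox) is added. The 12 libraries form 4 groups of 3. Vehicle cells received ethanol for 5 days, TNFα cells received ethanol for 5 days and 20 ng/ml TNFα for the final 3 h, E2 cells received 1 nM estradiol (E2) for 5 days, and E2+ TNFα cells received both agents on the same schedule. Cells of every group grew in charcoal-stripped serum with dox, dox being named for the E2+ TNFα libraries in the treatment protocol but not in their own labels. There is no group without dox, so ERβ was induced in the controls as well. All libraries come from 1 engineered line plated in triplicate, and p-values therefore measure the spread between these dishes. In such bulk RNA, fewer cells that express a gene and less RNA of that gene per cell cannot be told apart.

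Reads assigned to genes came to 35769865, 37522056 and 39943664 in the vehicle libraries and 30499211, 30218099 and 19504540 in the TNFα libraries. The E2 libraries held 15755240, 7652016 and 11854054 and the E2+ TNFα libraries 16790200, 27101217 and 36729990. The 3 vehicle libraries stood apart from the other 9 in overall expression. The first principal component separated them and held 68.7% of the variance. Spearman correlations across genes were 0.706 to 0.863 between vehicle and other libraries, 0.928 to 0.989 between libraries of different groups other than vehicle, and 0.973 to 0.998 within groups. Differences from vehicle also followed the base composition of genes, with a Spearman correlation across genes between log2 fold change and exon GC content of 0.71 for TNFα relative to vehicle and 0.66 for E2 relative to vehicle, but -0.33 for E2+ TNFα relative to E2 and -0.21 for E2+ TNFα relative to TNFα. With exon length the correlations were -0.31, -0.38, 0.46 and 0.05 in the same order of comparisons. The paper reports a correction for batches with RUVseq and housekeeping genes, but the labels do not say which libraries formed them. The effect of a batch made up of vehicle libraries and that of the vehicle condition therefore cannot be told apart. For each gene, the comparisons that do not use vehicle are therefore given beside those that do.

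GREB1, a classical estrogen target, was at 3.44 ± 0.161 CPM (SD, n = 3) in vehicle and 4.12 ± 0.465 in TNFα libraries, against 51.6 ± 8.84 in E2 and 52.8 ± 4.98 in E2+ TNFα libraries. CPM is the read count scaled to library size and normalized with TMM, which allows for the composition of libraries. NFKBIA, a feedback inhibitor of NFκB, was at 71.0 ± 2.20 CPM in vehicle, 365 ± 11.5 in TNFα, 150 ± 8.58 in E2 and 277 ± 30.1 in E2+ TNFα libraries. TNF itself, which encodes TNFα, was at 0.317 ± 0.0531, 36.7 ± 2.42, 1.24 ± 0.530 and 8.76 ± 1.14 CPM in the same order of groups. ESR2, which encodes ERβ, was at 472.5 ± 14.9, 255 ± 26.7, 306 ± 14.7 and 448.5 ± 53.2 CPM in vehicle, TNFα, E2 and E2+ TNFα libraries, so the receptor transcript itself was not level across the groups. GREB1 thus separated the libraries with E2 from those without it, and NFKBIA and TNF were higher with TNFα than without it in both pairs of groups. GREB1 passed the filter on low values only through libraries with E2, and TNF only with those given TNFα. Their levels are descriptions.

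The stretches upstream of IL1A, IL1B, IRAK1 and IRAK2 are shown because these are the ligand and kinase genes among the members that TNFα, E2 or both moved and for which a start site was given. Each line gives the 250 bases before a RefSeq start site of GRCh38.p14, 5′ to 3′ on the strand of the gene, with letters that match a κB consensus or an AP-1 motif in capitals. They are chr2:112784494-112784743 (minus strand) for the first of the IL1A start sites, chr2:112836780-112837029 (minus strand) for IL1B, chrX:154019903-154020152 (minus strand) for IRAK1 and chr3:10164669-10164918 (plus strand) for IRAK2.
IL1A: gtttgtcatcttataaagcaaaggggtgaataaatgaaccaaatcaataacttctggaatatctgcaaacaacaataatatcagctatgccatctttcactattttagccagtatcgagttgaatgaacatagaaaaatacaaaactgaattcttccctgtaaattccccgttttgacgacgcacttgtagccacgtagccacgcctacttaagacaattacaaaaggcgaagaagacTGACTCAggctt
IL1B: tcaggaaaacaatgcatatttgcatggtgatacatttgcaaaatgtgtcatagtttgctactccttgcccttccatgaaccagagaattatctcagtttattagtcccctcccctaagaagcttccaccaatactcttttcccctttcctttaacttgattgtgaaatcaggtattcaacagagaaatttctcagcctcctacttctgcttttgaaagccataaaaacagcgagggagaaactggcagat
IRAK1: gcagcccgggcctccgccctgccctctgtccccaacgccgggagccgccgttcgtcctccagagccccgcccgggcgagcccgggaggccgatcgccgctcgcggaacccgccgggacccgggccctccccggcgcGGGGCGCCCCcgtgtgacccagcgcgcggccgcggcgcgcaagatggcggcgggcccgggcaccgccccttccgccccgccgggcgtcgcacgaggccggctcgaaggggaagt
IRAK2: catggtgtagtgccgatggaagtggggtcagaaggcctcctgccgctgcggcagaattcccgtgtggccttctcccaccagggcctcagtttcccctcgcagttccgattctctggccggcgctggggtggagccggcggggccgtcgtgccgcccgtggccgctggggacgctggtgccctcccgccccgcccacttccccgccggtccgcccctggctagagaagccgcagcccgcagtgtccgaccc

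The motifs searched are short, and they were sought on both strands in windows that also hold the 50 bases after the start. Of the 7 members, 6 had such a window (10 windows in all, with IL18 not among them). The motifs were the κB consensus, found in 11.3% of 35116 windows of this kind, the AP-1 motif TGANTCA, found in 7.71%, and the full estrogen response element, GGTCA and TGACC with 3 bases between them, found in 0.057%. The window of the first IL1A start site held 2 AP-1 matches, which begin at positions -12 and 39 from the start, and the second of these lies past the printed stretch. The IRAK1 window held 1 κB match at -114 and 1 AP-1 match at -1 that spans the start and is not capitalized. No match to the 3 motifs was found in the windows of IL1B, IRAK2, IL1R1 and IL1RAP. These matches describe letters and are not binding sites.

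Relative to each other, levels are compared per length, as RPKM (CPM divided by exon length in kilobases). In vehicle libraries the order of mean RPKM was IL1B (131 ± 3.24, SD, n = 3), IL1A (54.9 ± 3.55), IRAK1 (42.5 ± 3.52), IL18 (13.1 ± 0.757), IRAK2 (6.003 ± 0.321), IL1RAP (3.19 ± 0.519) and IL1R1 (2.43 ± 0.452). In TNFα libraries IL1B led with 908 ± 54.9 RPKM and IL1R1 came last with 0.626 ± 0.142. In E2 libraries IRAK1 led with 130 ± 36.0 RPKM, followed by IL18 with 37.5 ± 7.04 and IL1B with 17.7 ± 3.97, while IL1A had 3.29 ± 1.69. The rank of IRAK1 depends on its length, since 4682 of the 8342 bases counted for it lie outside its annotated exons. With the other 3660 bases as the length it would be at 96.9 RPKM in vehicle, above IL1A at its full counted length. For IL1A 911 of 2928 counted bases and for IL1R1 1298 of 7426 also lie outside their annotated exons, so their RPKM depends on length too. IL1B was above IL18 in vehicle and below it in E2. In E2+ TNFα libraries IRAK1 (103 ± 11.9 RPKM) and IL1B (86.5 ± 2.78) led, and IL1R1 (2.55 ± 0.450) and IL1RAP (1.77 ± 0.479) were lowest. IL1R1 and IL1RAP were the lowest members in each of the 4 groups.

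**Figure D1:**
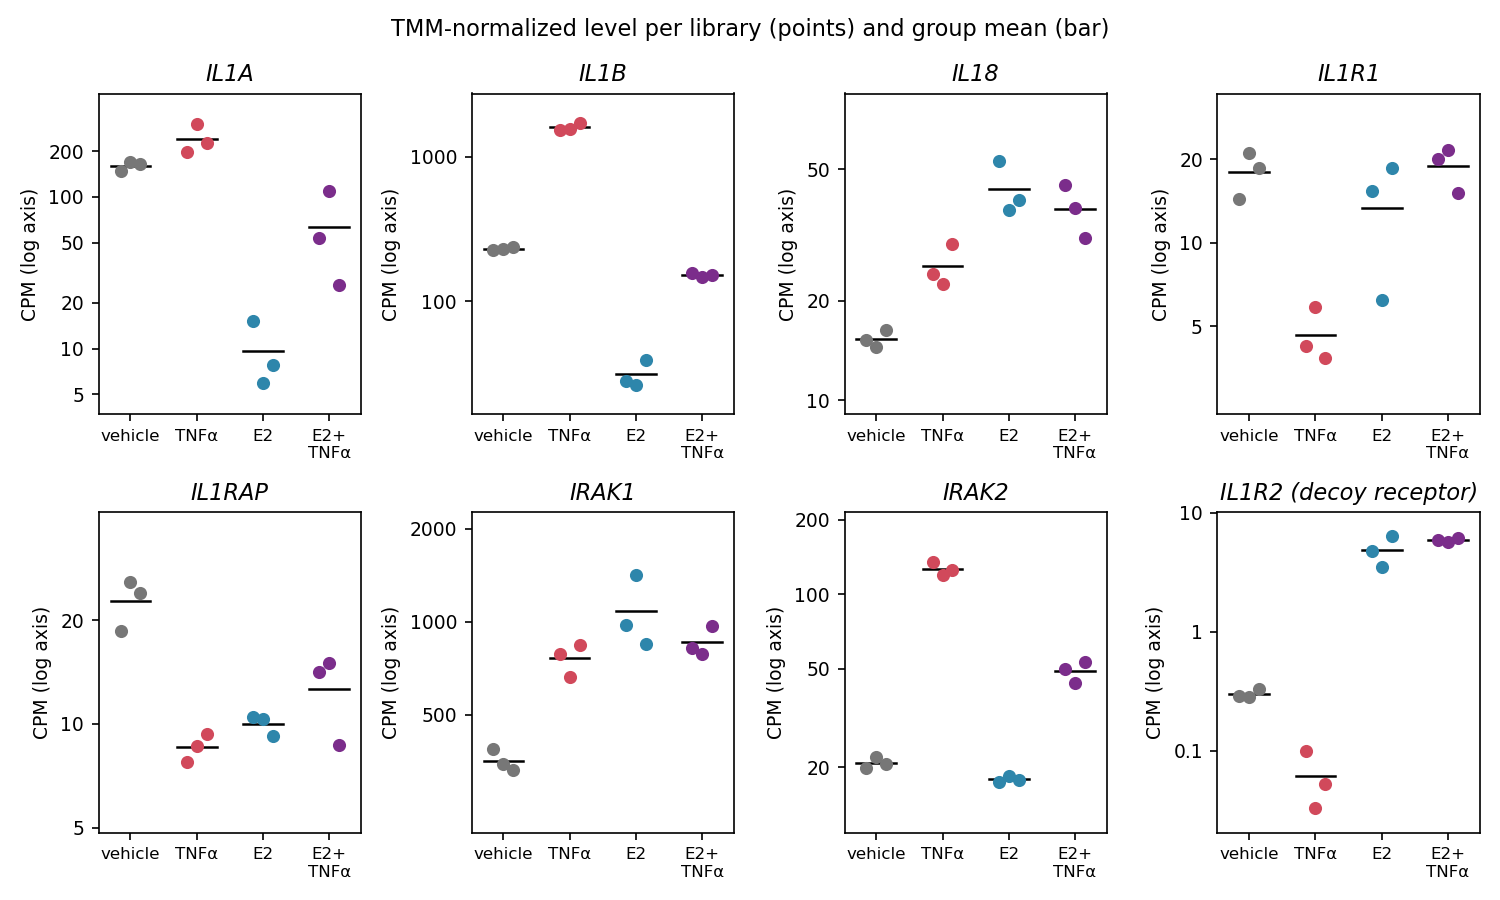
Level of each gene in TMM-normalized CPM (log axis, own scale per panel) in the 3 libraries of each group, with bars at group means; IL1R2, the decoy receptor, is shown last. IL1B separates into 4 levels with no overlap, highest with TNFα (1531 to 1711 CPM) and lowest with E2 (26.5 to 39.3 CPM).

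In response to TNFα without E2, IL1B and IRAK2 rose and IL1R1 fell, so that 3 of 7 members were significantly regulated (absolute log2 fold change of at least 1.5, p under 0.05 and adjusted p of at most 0.1). Among all genes tested 26.7% were. In E2-treated cells, TNFα raised IL1A and IL1B, or 2 of 7 members, and here 0.407% of all genes tested were significantly regulated. IRAK2 in the same comparison was 2.75-fold higher, at a log2 fold change of 1.46 that lay just under the threshold. The median log2 fold change of the 7 members was 0.73 without E2 and 0.47 with E2, against 0.01 over all genes tested in each case.

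In response to E2 without TNFα, IL1A and IL1B fell and IL18 and IRAK1 rose, which makes 4 of 7 members significantly regulated beside 30.5% of all genes tested. With TNFα present in both groups, E2 lowered IL1A and IL1B and raised IL1R1, or 3 of 7 members beside 5.56% of all genes tested. IRAK2 was 2.59-fold lower in this comparison, at a log2 fold change of -1.37. The median log2 fold change of the members was -0.40 without TNFα and 0.17 with TNFα, against -0.02 and 0.04 over all genes tested. In E2+ TNFα relative to vehicle, edgeR called 0 of 7 members past the thresholds, beside 25.1% of all genes tested, and so did DESeq2. In the same comparison 6 of 7 had an unadjusted p under 0.05, and 6 of 7 an adjusted p of at most 0.1 at any size of change, beside 80.6% of all genes tested. The response to TNFα differed with E2 past the thresholds, as an interaction term, for 3 of 7 members (IL1A, IL1R1 and IL1RAP), beside 31.8% of all genes tested. The comparisons share libraries, TNFα and E2 relative to vehicle sharing the vehicle libraries and both E2+ TNFα comparisons sharing the E2+ TNFα libraries.

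Groups without overlap were common, at 86.6% of all genes tested for TNFα and 80.9% for E2 relative to vehicle, 81.6% for E2+ TNFα relative to vehicle, 46.8% for E2+ TNFα relative to TNFα and 15.3% relative to E2.

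**Figure D2:**
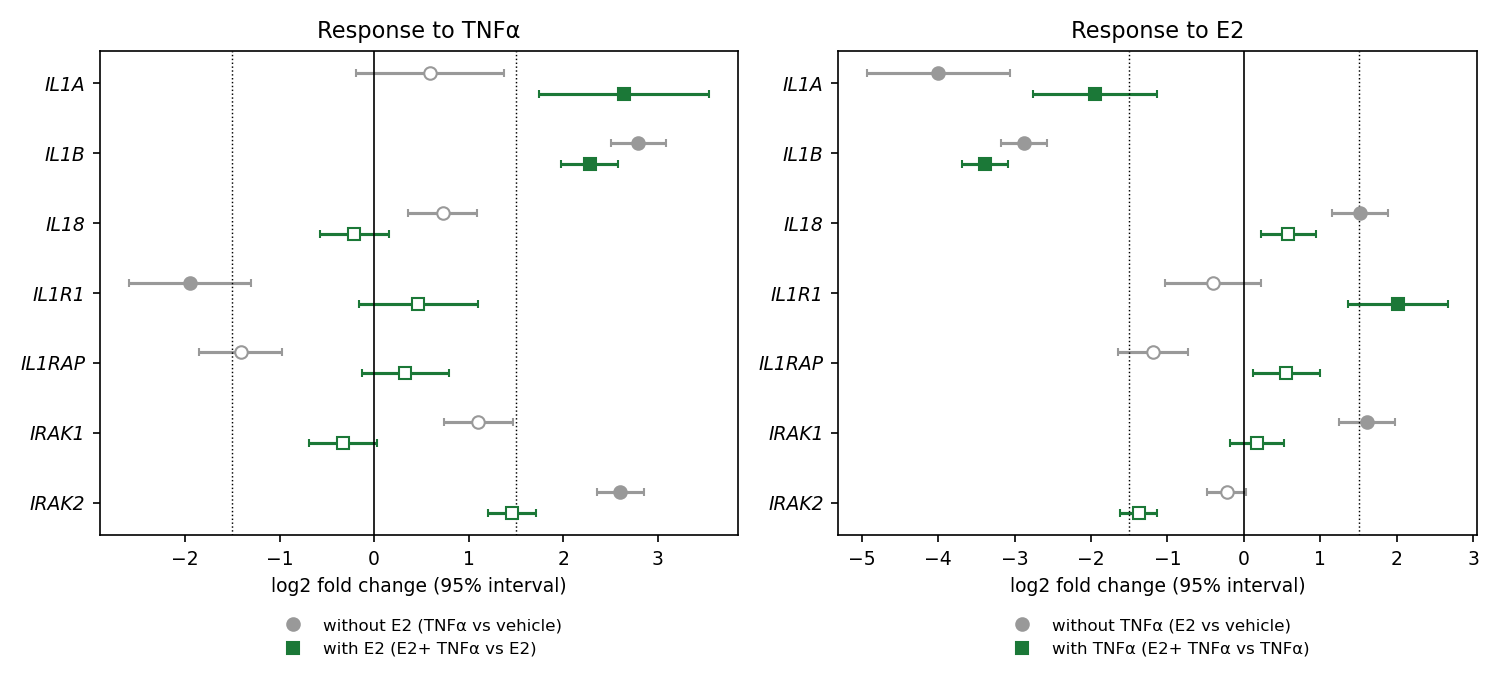
Log2 fold changes of the 7 genes with 95% intervals for TNFα (left, without and with E2) and for E2 (right, without and with TNFα); filled markers passed the thresholds, open ones did not, and dotted lines mark ±1.5. IL1B lies far from 0 in all 4 comparisons, while IL1R1 falls with TNFα without E2 and rises with E2 in the presence of TNFα.

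IL1A (chr2:112773915-112785394 of hg38, minus strand, 2928 exon bases) encodes IL-1α, a ligand that acts from dying or activated cells. It was at 149, 169 and 164 CPM in vehicle libraries and at 197, 301 and 228 CPM in TNFα libraries. With E2 it was at 15.3, 5.90 and 7.78 CPM, and with E2+ TNFα at 53.6, 109 and 26.2 CPM. No group overlapped another, E2 being lowest and TNFα highest, and the E2+ TNFα libraries had the widest spread (63.0 ± 42.3 CPM, SD, n = 3). TNFα raised IL1A 6.25-fold in E2-treated cells (log2 fold change 2.64, SE 0.42, edgeR adjusted p = 0.00414). Without E2 the ratio was 1.51 and did not pass the thresholds (log2 fold change 0.59, SE 0.37, edgeR adjusted p = 0.152), although it did with GC and length trends removed (2.21) and with a factor of unwanted variation (RUV) from housekeeping genes added to the fit (4.91). That factor was 0.436 to 0.505 in vehicle libraries and -0.344 to -0.00938 in all others, so it takes up differences from vehicle. With 1 library left out, the log2 fold change of TNFα in E2-treated cells ranged from 1.97 (without the second E2+ TNFα library) to 3.19 (without the first E2 library). E2 lowered IL1A 3.84-fold in TNFα-treated cells (log2 fold change -1.94, SE 0.38, edgeR adjusted p = 0.000994) and 15.9-fold relative to vehicle (log2 fold change -3.99, SE 0.44, edgeR adjusted p = 8.16e-07). These ranged from -2.61 (without the second E2+ TNFα library) to -1.57 and from -4.58 (without the first E2 library) to -3.74, so single libraries moved the folds by over 1.5 times while the calls were kept.

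The TNFα response of IL1A was larger with E2 than without by 2.05 on the log2 scale (SE 0.55, edgeR adjusted p = 0.00399). The 1686 tested genes within 2 percentage points of the exon GC content of IL1A (40.1%) had a median of 1.97 for the same term. With GC and length trends removed the term was 0.10 (edgeR adjusted p = 0.825), and with the housekeeping factor it turned to -3.22. Without the second E2+ TNFα library, the highest of its group, the term was 1.38. With the housekeeping factor, the fall relative to vehicle turned to 1.23 (edgeR adjusted p = 0.243), whereas the comparisons without vehicle kept direction and call.

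IL1B (chr2:112829751-112836779, minus strand, 1764 exon bases) lies next to IL1A and encodes IL-1β, a ligand that is secreted after cleavage by caspase-1. In vehicle libraries it was at 225, 231 and 236 CPM, and in TNFα libraries at 1531, 1560 and 1711 CPM. With E2 it was at 28.1, 26.5 and 39.3 CPM and with E2+ TNFα at 157, 148 and 153 CPM. The 4 groups did not overlap, and cells with both agents stayed below vehicle cells in every library. TNFα raised IL1B 6.94-fold without E2 (log2 fold change 2.79, SE 0.14, edgeR adjusted p = 5.52e-10) and 4.85-fold with E2 (log2 fold change 2.28, SE 0.14, edgeR adjusted p = 7.12e-08). E2 lowered it 7.34-fold without TNFα (log2 fold change -2.88, SE 0.14, edgeR adjusted p = 3.61e-10) and 10.5-fold with TNFα (log2 fold change -3.39, SE 0.14, edgeR adjusted p = 1.02e-10). The interaction term was -0.52 (SE 0.19, edgeR adjusted p = 0.0217), under the size threshold, and so was the difference between E2+ TNFα and vehicle (log2 fold change -0.60, SE 0.13, edgeR adjusted p = 0.000641). IL1B kept its direction and its call in all 6 comparisons under each alternative computed.

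The balance of the IL-1 ligands varied between groups. Its size depends on the counted lengths, and 911 of the 2928 bases counted for IL1A lie outside its annotated exons. These lengths are the same in all groups. The ratio of IL1B to IL1A in RPKM was 2.50, 2.27 and 2.39 in vehicle and 12.9, 8.60 and 12.5 in TNFα libraries. It was 3.06, 7.45 and 8.40 in E2 and 4.88, 2.25 and 9.67 in E2+ TNFα libraries. Vehicle and TNFα did not overlap, and the E2+ TNFα libraries spanned the values of vehicle and of the lowest TNFα library, which follows the spread of IL1A in that group. Over the 12 libraries, log2 CPM of IL1A and IL1B had a Pearson r of 0.88, and over the 9 without vehicle one of 0.94. These points share 4 treatments and are not independent.

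IL18 (chr11:112143251-112164117, minus strand, 1168 exon bases) encodes a ligand that uses a receptor pair of its own. It was at 15.2, 14.5 and 16.3 CPM in vehicle, 24.1, 22.4 and 29.7 in TNFα, 53.1, 37.6 and 40.5 in E2, and 44.8, 38.4 and 31.0 in E2+ TNFα libraries. Vehicle was lowest and TNFα next, whereas E2 and E2+ TNFα overlapped. IL18 rose 2.86-fold with E2 relative to vehicle (log2 fold change 1.52, SE 0.17, edgeR adjusted p = 1.28e-06), opposite to IL1A and IL1B. With TNFα present the difference was 0.58 (SE 0.17, edgeR adjusted p = 0.0142), and TNFα itself gave 0.73 without E2 (edgeR adjusted p = 0.00116) and -0.21 with E2 (edgeR adjusted p = 0.533). With trends removed the value for TNFα without E2 was 1.86, past the threshold. The rise with E2 lay close to the size threshold. It was 1.30 without the first E2 library, the highest of its group, 1.48 or 1.45 without the first or second vehicle library and 1.49 without the second TNFα library, in each case under the threshold. It was also under it with library size only (1.17) and with a filter of 10 counts in each library (1.45). With trends removed it was larger, at 2.48. The 1849 genes of similar exon GC content (42.2%) had a median of -1.34 in that comparison.

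IL1R1 (chr2:102069638-102179874, plus strand, 7426 exon bases) encodes the chain that binds IL-1α and IL-1β. It was at 14.4, 21.0 and 18.6 CPM in vehicle, 4.25, 5.84 and 3.85 in TNFα, 15.3, 6.22 and 18.5 in E2, and 20.0, 21.6 and 15.2 in E2+ TNFα libraries. The TNFα libraries were below all others, with counts of 74 to 179 reads, and the other 3 groups overlapped. E2 raised IL1R1 4.04-fold in TNFα-treated cells (log2 fold change 2.02, SE 0.30, edgeR adjusted p = 0.000102), and this log2 fold change stayed between 1.90 and 2.20 in 24 alternative fits. TNFα lowered it 3.86-fold without E2 (log2 fold change -1.95, SE 0.30, edgeR adjusted p = 3.08e-05), while with E2 the log2 fold change was 0.47 (SE 0.30, edgeR adjusted p = 0.407). The interaction term was 2.42 (SE 0.42, edgeR adjusted p = 0.000133), beside a median of 0.77 in 1772 genes of similar exon GC content (45.2%). The fall with TNFα was -1.07 once GC and length trends were removed and 0.47 (edgeR adjusted p = 0.674) with the housekeeping factor, and the interaction was 1.31 and -0.40 in the same fits. The gene shares 47 exon bases with the antisense gene IL1R1-AS1.

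IL1RAP (chr3:190514051-190657197, plus strand, 7147 exon bases) encodes the accessory chain shared by several receptors of the family. It was at 18.6, 25.7 and 24.0 CPM in vehicle, 7.74, 8.61 and 9.36 in TNFα, 10.5, 10.4 and 9.22 in E2, and 14.2, 15.04 and 8.72 in E2+ TNFα libraries. Vehicle was above all other groups, which overlapped each other. No pairwise comparison passed the size threshold in the fit reported here, the log2 fold change being -1.41 for TNFα (SE 0.21, edgeR adjusted p = 1.82e-05) and -1.19 for E2 (SE 0.21, edgeR adjusted p = 0.000117) relative to vehicle. In E2+ TNFα it was 0.56 relative to TNFα (SE 0.21, edgeR adjusted p = 0.0479) and 0.33 relative to E2 (SE 0.22, edgeR adjusted p = 0.423). The interaction was 1.74 (SE 0.30, edgeR adjusted p = 0.000114). Genes of similar exon GC content (38.8%, 1404 genes) had medians of -2.002 for TNFα and -1.99 for E2 relative to vehicle and 2.25 for the interaction, and with GC and length trends removed the values of IL1RAP turned to 0.73, 1.14 and -0.87. With library size only the threshold was passed for TNFα (-1.61) and E2 (-1.54) relative to vehicle, and without the first vehicle library for TNFα (-1.55).

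IRAK1 (chrX:154010506-154024584, minus strand, 8342 exon bases) encodes a kinase that is recruited to the receptor through MYD88. It was at 387, 345 and 331 CPM in vehicle, 786, 660.3 and 838 in TNFα, 978, 1418 and 845 in E2, and 820, 784 and 970.4 in E2+ TNFα libraries. Vehicle was below all others, and E2+ TNFα overlapped both TNFα and E2. E2 raised IRAK1 3.05-fold relative to vehicle (log2 fold change 1.61, SE 0.17, edgeR adjusted p = 6.53e-07), and TNFα relative to vehicle gave 1.10 (SE 0.17, edgeR adjusted p = 2.84e-05), under the size threshold. Without vehicle the log2 fold changes were 0.17 for E2 in TNFα-treated cells (SE 0.17, edgeR adjusted p = 0.447) and -0.33 for TNFα in E2-treated cells (SE 0.17, edgeR adjusted p = 0.297). The 1565 genes of similar exon GC content (58.4%) had a median of 0.67 for E2 relative to vehicle, and with the housekeeping factor the value of IRAK1 turned to -0.17. It was 1.41 without the second E2 library, 1.34 with trends removed and 1.23 with library size only, each under the threshold.

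Of the 8342 exon bases counted for IRAK1, 4682 lie outside the exons that GENCODE gives the gene. How the counting treated reads in these bases is not given in the sources used here, so the level of IRAK1 is uncertain. With the 3660 bases of its own exons as the length, mean RPKM would be 96.9 in vehicle, 208 in TNFα, 295 in E2 and 234 in E2+ TNFα.

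IRAK2 (chr3:10164879-10243745, plus strand, 3471 exon bases) encodes a kinase known for prolonging the signal. It was at 19.8, 22.0 and 20.7 CPM in vehicle and 134, 120.1 and 126 CPM in TNFα libraries. With E2 it was at 17.4, 18.3 and 17.8 CPM, and with E2+ TNFα at 49.6, 43.8 and 53.3 CPM. The 4 groups did not overlap, although vehicle and E2 lay close together. TNFα raised IRAK2 6.08-fold without E2 (log2 fold change 2.60, SE 0.12, edgeR adjusted p = 2.51e-10). With E2 the difference was 2.75-fold, just under the size threshold (log2 fold change 1.46, SE 0.12, edgeR adjusted p = 3.16e-06). E2 in TNFα-treated cells gave a log2 fold change of -1.37 (SE 0.11, edgeR adjusted p = 2.10e-07) and E2 relative to vehicle -0.23 (SE 0.12, edgeR adjusted p = 0.0944). The TNFα response was smaller with E2 by a log2 difference of -1.15 (SE 0.16, edgeR adjusted p = 2.32e-05), under the size threshold. IRAK2 with TNFα in E2-treated cells passed the threshold with library size only (1.57), the housekeeping factor (1.54), trends removed (1.52) or without the second E2+ TNFα library (1.53).

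**Figure D3:**
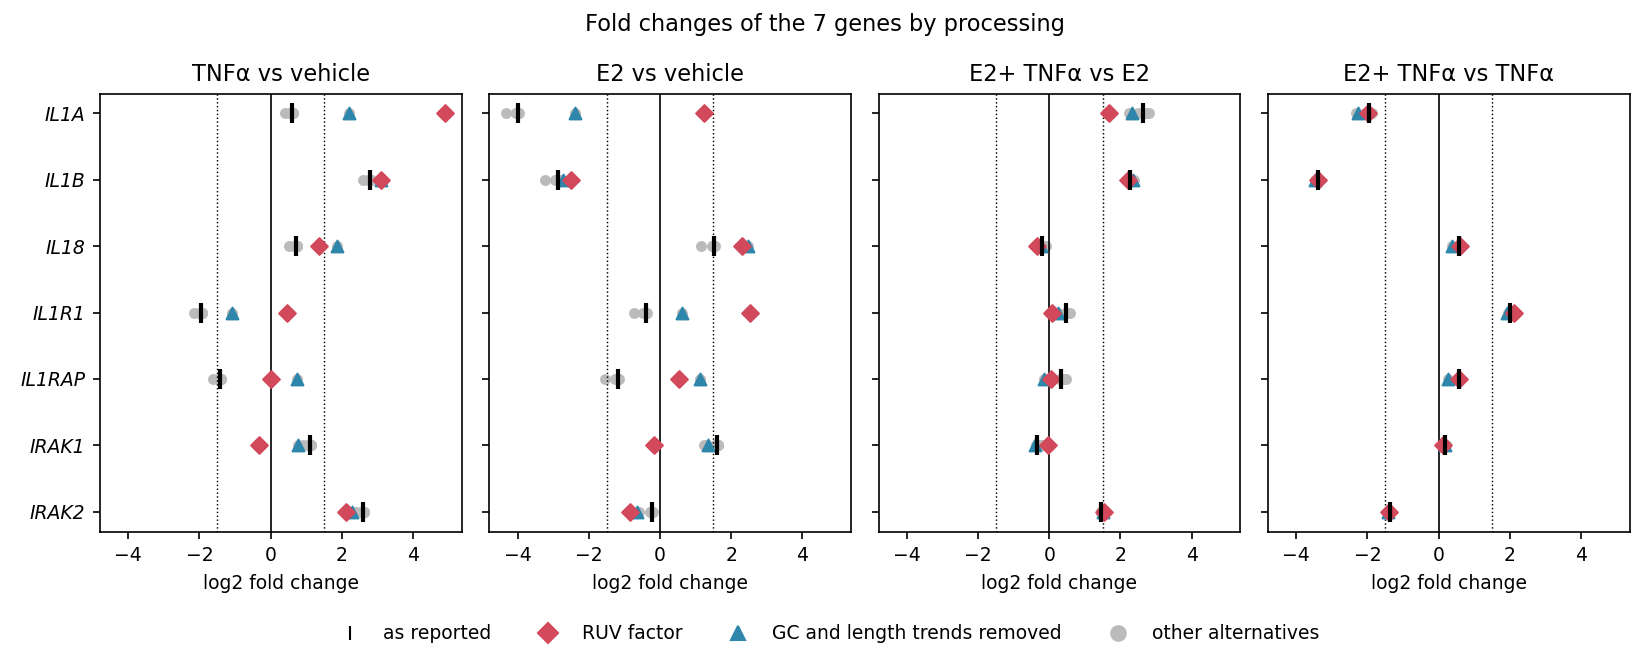
Log2 fold changes of the 7 genes in 4 comparisons as reported (black bars), with an unwanted factor from housekeeping genes (diamonds), with each library's GC and length trends removed (triangles) and under the other alternatives that kept every library of the groups compared (grey). In the right pair of panels, which do not use vehicle, the calls of IL1A and IL1B are kept by all markers and IL1RAP crosses 0 with trends removed, and in the left pair IL1A, IL1R1, IL1RAP and IRAK1 cross 0 in at least 1 panel.

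Of the other genes of the pathway, 44 were listed, 30 of these were in the table and 26 were tested. Relative to vehicle, 6 of the 26 fell with TNFα, 2 rose and 5 fell with E2, and 2 rose and 3 fell with E2+ TNFα. The called genes include IL1R2, IL1RAPL1, MAP3K7 and IRAK4. These passed the filter on low values only through the groups where they are high. Their part in these counts is a description. In E2+ TNFα relative to TNFα 1 of the 26 rose, namely IL1R2, so this count too is a description. Relative to E2, edgeR called 0 of the 26 past the thresholds and DESeq2 0. In edgeR 7 had an unadjusted p under 0.05, but the share of all genes under this rule is not given, so this is a description. An adjusted p of at most 0.1, at any size of change, was reached by 3 of the 26 and by 678 of the 11303 genes tested. Among all genes tested, 20.0% fell and 6.64% rose with TNFα relative to vehicle, 9.87% rose and 20.6% fell with E2 relative to vehicle, 7.52% rose and 17.6% fell with E2+ TNFα relative to vehicle, 3.55% rose in E2+ TNFα relative to TNFα and 0.389% rose relative to E2. The median log2 fold change of the 26 genes was -0.25 for TNFα and -0.23 for E2 relative to vehicle, 0.12 for E2+ TNFα relative to TNFα and -0.01 relative to E2. The interaction was called for 11 of the 26, beside 31.8% of all genes tested, for 4 with trends removed (13.8% of all genes tested) and for 0 with the housekeeping factor (10.6%).

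Among the receptors, IL1R2, the decoy that binds IL-1 without signaling, was higher in every library with E2 than in any without it. It had 12, 12 and 15 reads in vehicle, 3, 1 and 1 in TNFα, 69, 22 and 70 in E2, and 95, 163 and 203 in E2+ TNFα libraries. In CPM these are 0.290, 0.282 and 0.328, then 0.0988, 0.0326 and 0.0520, then 4.72, 3.51 and 6.33, and last 5.87, 5.70 and 6.08. The TNFα libraries were lowest and the level was low throughout, at 1.07 ± 0.0345 RPKM (SD, n = 3) with E2+ TNFα. From summed reads, the ratio of E2+ TNFα to TNFα was 94.7 (95% exact interval 40.3 to 293, counting error only) and that of E2 to vehicle 16.7 (11.7 to 24.4). IL1R2 reached 1 RPKM in 1 E2 and 3 E2+ TNFα libraries and in none without E2, so it entered the test only through the groups where it is high, and its rises with E2 are given as a description. The log2 fold change of E2 relative to vehicle was 4.01 (SE 0.30). The lower level with TNFα than in vehicle rests on 5 reads in the TNFα libraries, with both groups under the filter on low values, and is likewise a description. TNFα gave no call in E2-treated cells. With the housekeeping factor and with trends removed, the log2 fold change with E2 relative to vehicle was 4.48 and 4.35. IL1RAPL1, a receptor chain known mainly from neurons, was at 13.9 ± 3.21 CPM in vehicle and fell to 1.85 ± 0.0992 with TNFα, 1.11 ± 0.290 with E2 and 1.36 ± 0.654 with E2+ TNFα, and these 3 falls were also called with trends removed (log2 fold changes -1.75, -2.59 and -2.30) but not with the housekeeping factor. IL1RAPL1 reached 1 RPKM in the 3 vehicle libraries alone, so it was tested only because vehicle is high, and its falls are likewise a description.

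Among the adaptors, kinases and ligases, the pairwise calls in edgeR were falls relative to vehicle. MAP3K7, which encodes the TAK1 kinase, fell from 17.1 ± 1.72 CPM in vehicle to 5.51 ± 1.27 with TNFα, 4.98 ± 0.618 with E2 and 5.80 ± 1.40 with E2+ TNFα. TAB3, a partner of TAK1, fell from 43.4 ± 6.96 to 7.79 ± 1.43 with TNFα and 9.50 ± 3.93 with E2, TAB2 fell with E2 (log2 fold change -1.74), and IRAK4 fell with TNFα (log2 fold change -1.58). With trends removed, these values were 0.24, 0.22 and 0.10 for MAP3K7, -0.12 and 0.37 for TAB3, -0.06 for TAB2 and -0.25 for IRAK4, so none of these calls held. None held with the housekeeping factor either, but that factor separates vehicle from all other libraries, so this loss decides nothing. MAP3K7 and IRAK4 passed the filter on low values only with the vehicle libraries, so their falls are descriptions. MYD88, the adaptor, was at 28.3 ± 1.56, 42.2 ± 3.22, 76.0 ± 7.21 and 61.7 ± 5.80 CPM in vehicle, TNFα, E2 and E2+ TNFα libraries, and no pairwise comparison passed the size threshold.

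Among the genes for ligand maturation, CASP4, an inflammatory caspase, fell from 99.8 ± 1.55 CPM in vehicle to 18.4 ± 2.81 with TNFα, 34.7 ± 7.78 with E2 and 31.5 ± 6.43 with E2+ TNFα. The fall with TNFα was also called with trends removed (log2 fold change -1.79), and those with E2 and E2+ TNFα were not (-0.99 and -1.12). With the housekeeping factor none was called (-1.31, -0.13 and -0.50). PYCARD, the adaptor of inflammasomes, rose from 4.09 ± 0.433 CPM in vehicle to 17.2 ± 3.78 with E2 and 11.7 ± 1.97 with E2+ TNFα. It was at 11.4 ± 0.602 CPM with TNFα, just under the size threshold in edgeR (log2 fold change 1.48, adjusted p = 8.00e-06) and past it in DESeq2 (1.51), and E2+ TNFα relative to TNFα gave 0.03. With trends removed the log2 fold changes with E2 and E2+ TNFα relative to vehicle were 0.68 and 0.36, without a call. NLRP3, an inflammasome sensor, was at 50.9 ± 2.05, 74.1 ± 2.64, 79.6 ± 3.70 and 124 ± 15.2 CPM in vehicle, TNFα, E2 and E2+ TNFα libraries, with no call. IL37, IRAK3, CASP1 and AIM2 were in the table but under the filter on low values. IL1RN, IL33, IL36A, IL36B, IL36G, IL36RN, IL1F10, IL1RL1, IL18R1, IL18RAP, IL1RAPL2, PELI2, CASP5 and NLRC4 were not analysed here.

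**Figure D4:**
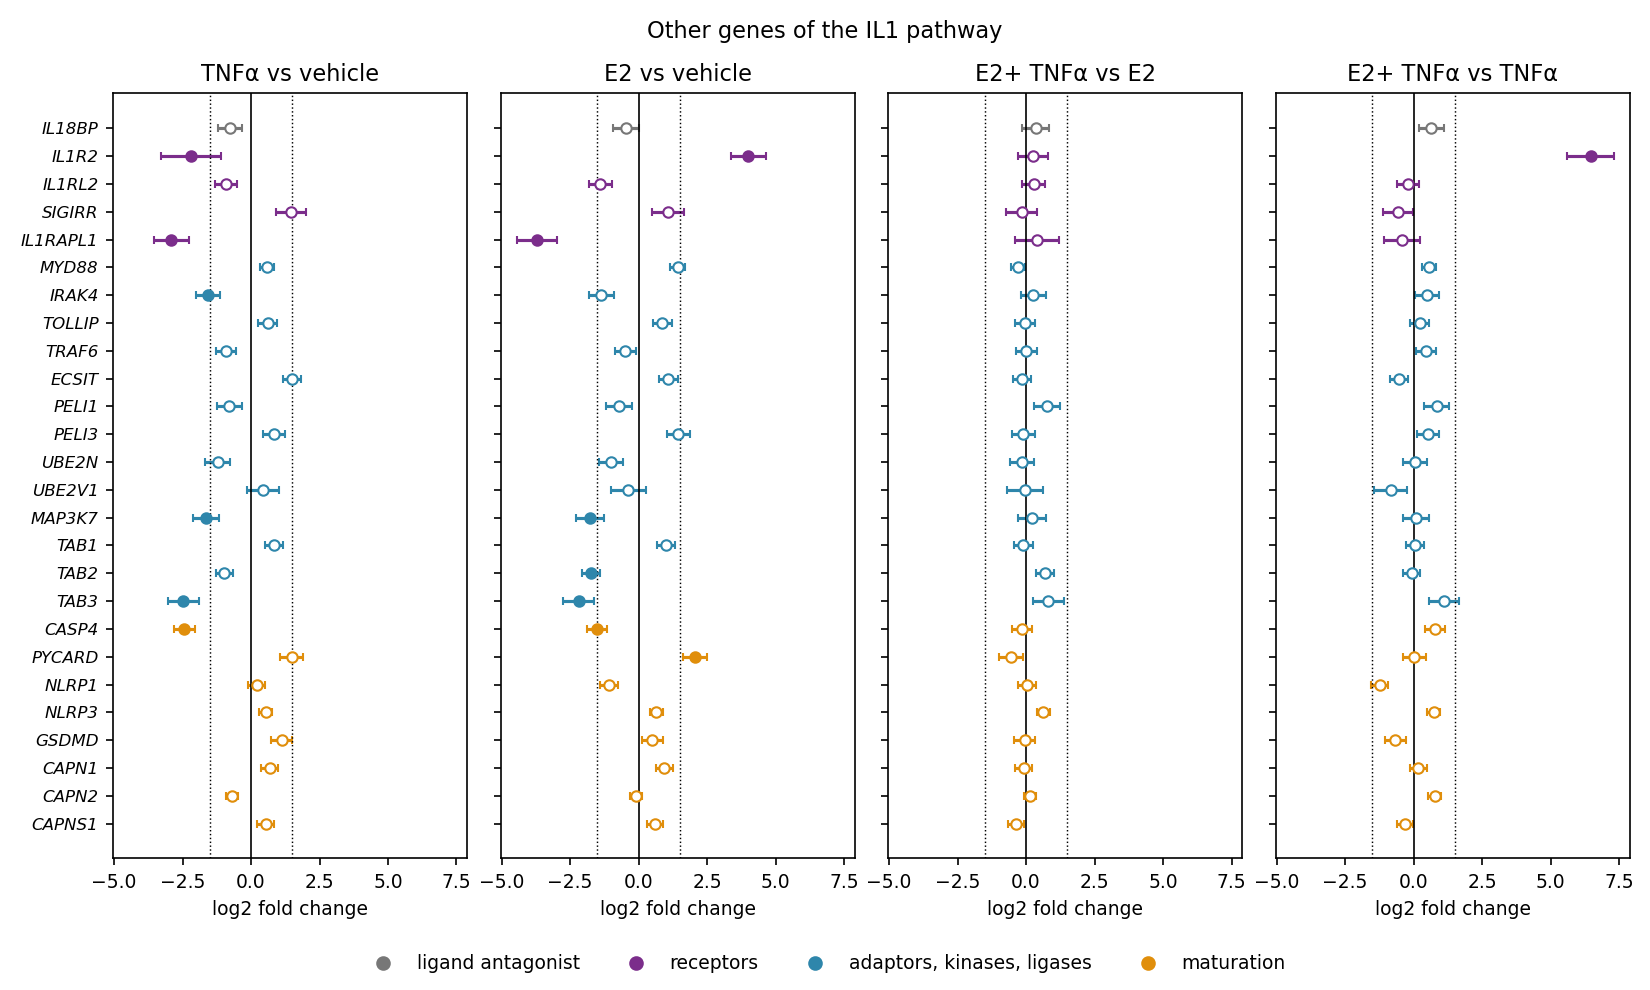
Log2 fold changes with 95% intervals of the other 26 pathway genes tested, grouped by role, in 4 comparisons; filled markers passed the thresholds and dotted lines mark ±1.5. Relative to vehicle, 6 markers are filled for TNFα and 7 for E2, whereas in the right pair of panels IL1R2 is the sole filled marker. IL1R2, IL1RAPL1, MAP3K7 and IRAK4 were tested only through the groups where they are high, so their filled markers are descriptions.

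For each member, the tested genes with the most similar log2 CPM over the 12 libraries were found by Pearson r, and those that were also among the 5 most similar over the 9 libraries without vehicle are named first. IL1A was closest to SOD2, the mitochondrial superoxide dismutase (r = 0.985), and IL1B to ETS2, a transcription factor (r = 0.992). IRAK2 was closest to the cytokine gene IL6 (r = 0.994), with CSF2 (r = 0.984) also in both lists. IL1R1 had NXPE3 (r = 0.984), IL1RAP had REEP3 (r = 0.989) and VPS4B (r = 0.985), and IRAK1 had VAT1 (r = 0.994) in both lists. IL18 shared none of its 5, the closest over 12 libraries being HIST1H1C, a linker histone gene (r = 0.976). The next genes over 12 libraries were ATP1B1, EREG, ETS1 and ANKRD33B for IL1A, CXCL2, SMAD3, G0S2 and NFKBIZ for IL1B, and BBC3, MEFV and FP565260.3 for IRAK2. Those of IL18 were SLC25A20, RGS10, RAB32 and OVOL2, those of IL1R1 were LAMP2, EAF1, NMT2 and HPS5, those of IL1RAP included ZNF644 and FAM126A, and those of IRAK1 were PYGB, MAPK3, BTBD6 and MLF2. The libraries share 4 treatments, and these values are descriptions.

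The labelled line was checked against its markers. VIM, a mesenchymal filament, was at 1157 to 1550 CPM in group means and CD44 at 755 to 1644. EGFR was at 251 ± 28.4 CPM in vehicle, 249 ± 27.1 in TNFα, 68.6 ± 11.3 in E2 and 90.9 ± 8.35 in E2+ TNFα libraries. The epithelial keratin KRT8 was at 677 ± 62.4 CPM in vehicle and 3507 ± 553 in E2 libraries, KRT18 at 445 ± 36.9 and 2082 ± 401, and EPCAM at 9.93 ± 0.935 and 10.1 ± 3.17. CDH1, which encodes E-cadherin and is known to be low in the parental line, was at 3.15 ± 0.525 and 1.90 ± 0.192 CPM in vehicle and TNFα but at 41.0 ± 11.05 and 40.7 ± 5.02 in E2 and E2+ TNFα libraries. Of 7 leukocyte markers, 3 were in the table (CD14, LYZ and CSF1R), with a summed level of 1.95 to 2.06 CPM in vehicle, 3.69 to 4.53 in TNFα, 4.16 to 5.26 in E2 and 4.31 to 5.14 in E2+ TNFα libraries and none at 0 reads. CSF1R, LYZ or CD14 was the most abundant of the 3, depending on the library. LYZ was at 0.102 ± 0.0632 CPM in vehicle and 1.68 ± 0.651 in E2 libraries, where IL1B was lowest, and it passed the filter on low values only through libraries with E2. The part of such transcripts in the levels of IL1B was not tested. PTPRC, ITGAM, CD3E, PECAM1, CDH5, ESR1 and PGR were not analysed here.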

How the data were processed

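Libraries of 12 samples were prepared with a stranded mRNA kit. The submitters' processing notes name TopHat2 2.1.0, featureCounts and hg38. The deposited values are counts, that is reads the authors assigned to genes, without normalization, and the RUVseq correction of the study is not in them. The strand setting of the counting is not given in the sources used here. Of 12567 rows, 46 exact repeats and 70 copies of another symbol were removed. RPKM was derived with the deposited exon lengths, and genes with at least 1 RPKM in at least 3 libraries were tested (11303). For this filter alone, RPKM was taken from library size without TMM.

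Counts were normalized with TMM and fitted as 4 group means in edgeR 4.0.16 (R 4.3.3), tested by quasi-likelihood, and p was adjusted by Benjamini-Hochberg over all genes tested. Intervals of fold changes are 95%. Thresholds were those of the study. Alternatives were other size factors, library size only, other filters, DESeq2 1.42.0, the likelihood ratio test, the compared groups only, the replicate number as a block, 1 factor from 27 housekeeping genes as in RUVg, removal of loess trends (span 0.3) with exon GC content and length, and each library left out. A fit of the 9 libraries other than vehicle was added after seeing the data. Steps were tested on simulated data. The members and lists were chosen with earlier results of these data known. Named genes are the members, pathway genes past the thresholds or too low to test (MYD88 and NLRP3 were added after their values were seen), the 5 genes most correlated with each member, label checks and cell markers, of which a few are not reported here. Counts of replicates differed by 10.2 to 71.1 times counting error (chi-square per degree of freedom). Motifs were sought in RefSeq sequences of GRCh38.p14.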

Additional observations from a re-analysis of the deposited data

Results flagged for a closer look

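The response to TNFα differed with and without E2 for 3 of the 7 genes, beside 31.8% of all genes tested, as measured by the interaction term in edgeR, which is the TNFα response in E2-treated cells minus that in cells without E2. The term was 2.05 for IL1A on the log2 scale, 2.42 for IL1R1 and 1.74 for IL1RAP. All 3 rest on the vehicle libraries. With GC and length trends removed they were 0.10 for IL1A, 1.31 for IL1R1 and -0.87 for IL1RAP, and only IL18 passed the thresholds among the members (-2.10). The paper reports a correction for batches, which the labels do not name. The parts of base composition and of a batch in these values were not tested separately.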

How the results depend on the processing

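Relative to TNFα, the values of E2+ TNFα kept direction and call for all 7 genes in every alternative. Relative to E2 this held for 5 of 7, relative to vehicle (TNFα, E2 or E2+ TNFα) and for the interaction for 2 of 7 each. The cause of the changes was not tested.

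The housekeeping factor itself separated vehicle from all other libraries. A fit with it takes up differences from vehicle, so no conclusion is drawn from calls that it removes or turns. With the housekeeping factor, these log2 fold changes turned over. For TNFα relative to vehicle they were 0.47 (IL1R1), 0.0097 (IL1RAP) and -0.32 (IRAK1). For E2 relative to vehicle they were 1.23 (IL1A), 2.52 (IL1R1), 0.55 (IL1RAP) and -0.17 (IRAK1), for E2+ TNFα relative to vehicle 2.92 (IL1A), 0.59 (IL1RAP) and -0.20 (IRAK1), and for the interaction -3.22 (IL1A), -0.40 (IL1R1) and 0.29 (IRAK1). With GC and length trends removed, with or without the replicate block, IL1RAP turned to 0.73 (TNFα relative to vehicle), -0.14 (with both agents relative to E2), 1.14 (E2 relative to vehicle), 1.00 (both agents relative to vehicle) and -0.87 (interaction), and IL1R1 to 0.62 (E2 relative to vehicle). IL1R1 in E2+ TNFα relative to vehicle was -0.15 with library size only and -0.10 to 0.21 with 1 library left out, but 0.86 with trends removed and 2.58, a call, with the housekeeping factor. With library size only, the median log2 fold change of all genes for E2 relative to vehicle was -0.38, against -0.02. For TNFα relative to vehicle, the share of all genes tested past the thresholds went from 26.7% to 10.5% with trends removed and 8.25% with the housekeeping factor. For E2 relative to vehicle it went from 30.5% to 13.9% and 15.6%.

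The number of members called in E2+ TNFα relative to vehicle was 1 with library size only (26.9% of all genes tested), 3 with the housekeeping factor (12.1%), 1 with trends removed (10.9%; also 1 with the block) and 0 to 1 with 1 library left out, IL1A being called without the second E2+ TNFα library (-2.02). For the interaction it was 1 with trends removed (13.8% of all genes tested; also 1 with the block) and 2 to 4 with 1 library left out (28.8% to 34.7%), IRAK1 being added without TNFα replicate 2 (-1.52), E2 replicate 3 (-1.57) or E2+ TNFα replicate 3 (-1.53), and IL1A lost without the second E2+ TNFα library (1.38). Of the pathway genes 8 were called in at least 1 pairwise comparison, and 13 without a filter, where 12443 genes were tested in all. The number was 2 with the housekeeping factor, 4 with trends removed (also with the block) and 8 to 10 with 1 library left out. The share of all genes under this rule is not given, so these numbers are descriptions. For TNFα relative to vehicle, DESeq2 called 9 of the 26 (26.6% of all genes tested), against 6 in edgeR (26.7%). DESeq2 added rises of ECSIT (log2 fold change 1.52), PYCARD (1.51) and SIGIRR. SIGIRR passed the filter on low values only outside vehicle, so its rise is a description.

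Same-numbered libraries deviated together (correlation over 0.1) in 5 of 18 pairs, so the replicate numbers do not pair the samples. With the replicate block alone, 0 of 42 values of members changed call or direction, and 8 pathway genes were called. In E2 libraries, IL1A (37 to 223 reads), IL1R1 (39 to 224) and IL1RAP (65 to 153) have the fewest reads, which limits their precision.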

Other observations

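The receptor chains varied against each other. The size of their ratio depends on the counted lengths, and 1298 of the 7426 bases counted for IL1R1 lie outside its annotated exons. The ratio of IL1RAP to IL1R1 in RPKM was 1.34, 1.27 and 1.34 in vehicle and 1.89, 1.53 and 2.53 in TNFα libraries. In E2 libraries it was 0.710, 1.73 and 0.517, and in E2+ TNFα libraries 0.734, 0.725 and 0.598. It was above 1 in all libraries without E2 and below 1 in 5 of the 6 with E2.

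Some pathway genes were under the filter on low values, which is set per length. IRAK3 among them had 235 to 311 reads in vehicle libraries. CASP1, which encodes the protease that matures IL-1β, had 41, 55 and 63 reads in vehicle, 8, 3 and 4 in TNFα, 0, 0 and 2 in E2, and 8, 6 and 4 in E2+ TNFα libraries. AIM2, an inflammasome sensor of DNA, had 33, 38 and 33 reads in vehicle and at most 6 in any other library. IRAK3, which encodes a kinase-dead inhibitor of the pathway, had a mean of 6.47 ± 0.688 CPM (SD, n = 3) over vehicle libraries, 2.70 ± 0.288 in TNFα, 1.26 ± 0.926 in E2 and 2.20 ± 0.345 in E2+ TNFα libraries. IL37, an anti-inflammatory ligand, had 18, 20 and 22 reads in TNFα libraries and 1 to 12 in the others. These values were not tested.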
